A study of Mus musculus with 30 samples.

Results

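Abca1, Abcg1, Abcg5, Abcg8, Scarb1, Nr1h3, Pltp and Lcat are genes of sterol export, of high density lipoprotein (HDL) handling and of the liver X receptor (LXR) pathway. They were taken from the array by the transcript accession of each probe, which led to 8 of 12188 named genes tested and to 9 probes, because Abcg8 was read by a pair of probes. Liver RNA came from 30 female C57BL/6 mice, acquired at 5 to 6 weeks of age, with 1 array per mouse. The 14 exposed mice had received 0.162 mg of Printex 90, a carbon black of nanoparticle size, through the trachea. The particles were given in 40 µl of a suspension in 0.9% NaCl that held 10% lavage fluid from mice of the same strain, followed by 150 µl of air. For the 16 control mice the labels state the treatment as none, and no vehicle is named for them. The time between instillation and tissue collection is not given in the sources used here. The design text mentions 6 mice in each group, fewer than were analysed here.

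LXRs are nuclear receptors that bind oxidised forms of cholesterol and, paired with retinoid X receptors, switch on genes that move sterols out of cells. Nr1h3 encodes LXR alpha, the main LXR of liver. Abca1 and Abcg1 are membrane pumps that hand cholesterol to poorly lipidated apolipoprotein A-I and to mature HDL particles, respectively. Abcg5 and Abcg8 are transporters that work as a pair in the canalicular membrane of hepatocytes, where they send sterols into bile. Scarb1 encodes SR-BI, the HDL receptor that takes up cholesteryl ester, Pltp transfers phospholipid between lipoproteins, and Lcat esterifies the cholesterol that HDL carries.

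The promoter table taken from RefSeq (build GRCm38.p6) held windows of 250 bases before to 50 bases after a start site for 6 of the 8 genes, and none for Abcg1 or Scarb1. Abca1 is shown because it carries the textbook response element of the LXR pathway, and the stretch between Abcg5 and Abcg8 because the pair is transcribed in opposite directions from neighbouring starts and its members were compared with each other. Capitals in the Abca1 sequence mark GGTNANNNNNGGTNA, a relaxed form of the repeat that LXR recognises, found on the reverse strand. Capitals in the other sequence mark GATAA, the core of sites for GATA factors, also on the reverse strand. The first sequence holds the 160 bases before the start of Abca1 (chr4:53159896-53160055, minus strand). The second holds the 109 bases between the starts of Abcg5 and Abcg8 (chr17:84683012-84683120), read on the plus strand, with Abcg5 leaving to the left and Abcg8 to the right.
Abca1: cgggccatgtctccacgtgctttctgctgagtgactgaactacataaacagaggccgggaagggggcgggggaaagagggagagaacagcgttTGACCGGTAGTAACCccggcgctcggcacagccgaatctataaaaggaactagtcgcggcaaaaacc
Abcg5 to Abcg8: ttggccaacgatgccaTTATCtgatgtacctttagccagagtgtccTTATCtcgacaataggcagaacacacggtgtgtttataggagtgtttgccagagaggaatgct

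The relaxed repeat was present in 0.718% of 32851 promoter windows when both strands were searched, and among the windows of these genes it was found in that of Abca1 alone. GATAA was present in 25.4% of the windows. Among these genes it was found in the windows of Abcg5, Abcg8 and Lcat. The letters of a TATA box (TATAAA, 13.6% of windows) were found in the windows of Abca1, Abcg5, Abcg8 and Pltp. The match began at position -29 for Abca1 and at position 37, after the start, for Pltp. The matches of Abcg5 and Abcg8 are the same letters in the stretch they share, on the reverse strand for Abcg8. In none of the windows of these genes was TCACNCCAC found, a form of the sterol regulatory element that 1.24% of windows hold. A match describes the letters of the window and no binding was measured.

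Every value below is a log2 ratio of liver RNA (Cy5) over a universal mouse reference RNA (Cy3), and a difference of 1 on this scale is a change by a factor of 2. The median Cy5 signal per array lay between 104 and 196, and 43.3% to 79.6% of spots were well above background in Cy5. The arrays lay on 9 slides, 7 of which held both groups. Positions 1 and 2 of the slides held the 16 controls, positions 3 and 4 the 14 exposed mice, so position and group cannot be told apart. In each group the numbering of the mice breaks into 3 runs, of 6, 5 and 5 control mice and 4, 5 and 5 exposed mice, and what a run stands for is not given in the sources used here. The 10 mice of run 1 in either group took the earlier position (1 or 3) and the 10 mice of run 3 the later one (2 or 4), so run and place are tied as well. The number of arrays limits the precision, and nothing says how the animals were housed or collected. In bulk tissue, fewer cells of a type and less RNA per cell cannot be told apart.

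The liver identity of the samples was seen in the hepatocyte markers. The mean log2 ratio of 5 measured markers out of 7 listed (Alb, Ttr, Apoa1, Cyp2e1 and Tat) was 5.52 in controls, with a range of 4.85 to 6.29, and 5.36 in exposed mice, with a range of 4.81 to 5.93. All 8 sterol genes were measured in liver, with Cy5 well above background on 30 of 30 arrays for 8 probes and on 28 for the second Abcg8 probe. Against the reference RNA, the mean log2 ratio in controls was 5.52 ± 0.49 (SD, n = 15) for Abcg5, 4.32 ± 0.33 (SD, n = 16) for Lcat and 4.07 ± 0.40 (SD, n = 16) for Nr1h3. It was 2.89 ± 0.13 for Abca1, 1.48 ± 0.22 for Scarb1, 0.70 ± 0.44 for Pltp and -0.33 ± 0.18 for Abcg1 (SD, n = 16 each). Abcg1 was thus the one gene among the 7 with a measured ratio whose control mean lay below that of the reference. For Abcg8 the reference channel was well above background on 4 of 30 arrays with the first probe and on 10 with the second, so its distance from the reference is known only as a bound, and its ratios are printed below only to set mice against each other. These ratios describe each probe and were not compared between genes, and no dye was swapped.

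Over all animals, none of the 8 genes differed between exposed and control mice at an adjusted p under 0.05 (limma's moderated test with slide as a random block, Benjamini-Hochberg over 23607 probes). The same test called 0.0169% of all probes, so there was little to call in this comparison. At an unadjusted p under 0.05 stood 1 of the 8 genes, Abcg8, and 12.2% of all probes. The median difference of the 8 genes was -0.01, beside 0.01 over all probes. With the ratios scaled to a common spread between arrays, 7 of the 8 differences were negative in place of 4, from -0.90 for Abcg5 to -0.13 for Scarb1, with Abcg8 at 0.12, and none passed. The pooled comparison joins 3 exposed runs, whose values are given apart for each gene.

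**Figure D1:**
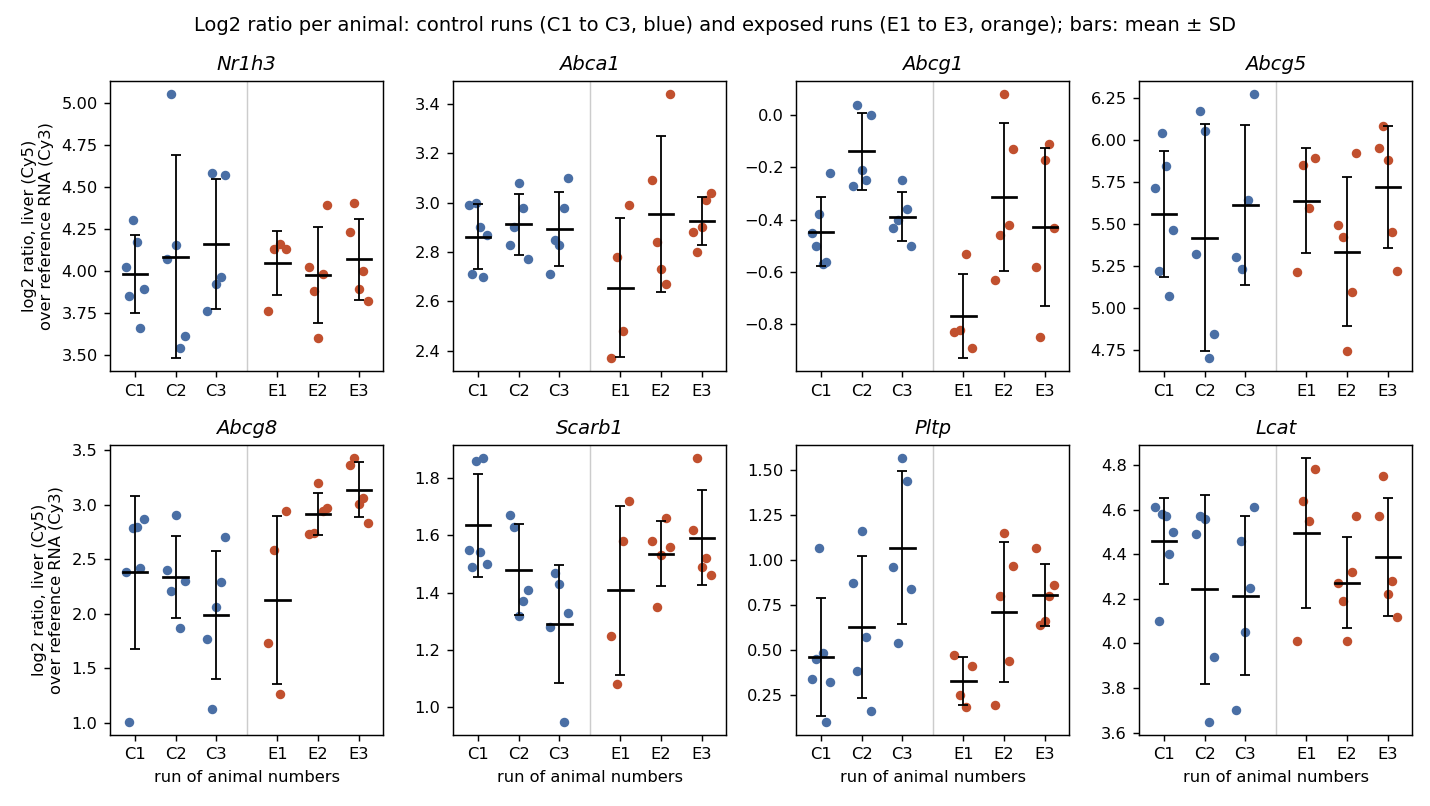
Log2 ratio of liver over reference RNA (vertical axis) for each of the 8 genes, by run of animal numbers (horizontal axis). Each point is 1 mouse, blue for control and orange for exposed, and black bars give the mean ± SD of a run. Abcg1 is lowest in exposed run 1 (mean -0.77) and Abcg8, by its first probe, is highest in exposed run 3 (mean 3.14); for Abcg8 the reference was well above background on 4 of 30 arrays, so its panel compares mice and gives no level.

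Nr1h3 (LXR alpha) did not pass the test in any of the comparisons with controls. The 16 control mice ranged from 3.54 to 5.05 with a median of 3.99, and the 14 exposed mice from 3.60 to 4.4 with a median of 4.01. Every exposed mouse lay within the control range. Exposed run 1 read 3.76, 4.13, 4.16 and 4.13, exposed run 2 read 4.02, 3.88, 3.60, 3.98 and 4.39, and exposed run 3 read 4.23, 4.4, 3.89, 4 and 3.82. The difference between exposed and control mice was -0.03 ± 0.10 (SE), with a 95% interval from -0.24 to 0.18 (limma, adjusted p = 0.945). With ratios scaled to a common spread it was -0.63 over all exposed mice and -1.11 in exposed run 3 (limma, adjusted p = 0.671 and 0.597). The widest values belonged to controls, and slide accounted for 67.7% of the variance of Nr1h3, the largest share among the 9 probes. This share is not adjusted for the number of slides.

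Abca1, the pump that loads apolipoprotein A-I, had a narrow range in controls, from 2.70 to 3.1 with a median of 2.88. Exposed run 1 read 2.37, 2.78, 2.48 and 2.99, so that 2 of its 4 mice lay below all controls. Exposed run 2 read 3.09, 2.84, 2.73, 2.67 and 3.44, and exposed run 3 read 2.88, 2.80, 2.90, 3.01 and 3.04. Run 2 held both a mouse below all controls and a mouse above them, while run 3 stayed within the control range. The difference was -0.05 ± 0.07 (SE) over all exposed mice (limma, adjusted p = 0.838) and -0.25 ± 0.10 for exposed run 1 against the mean of control runs (limma, adjusted p = 0.147), and neither passed the threshold.

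Abcg1, the pump that serves mature HDL, fell in exposed run 1. Control run 1 ranged from -0.57 to -0.22 with a median of -0.47, control run 2 read -0.27, 0.04, -0.21, -0.25 and 0.00, and control run 3 read -0.43, -0.40, -0.25, -0.36 and -0.50. Exposed run 1 read -0.83, -0.82, -0.53 and -0.89. Of its 4 mice, 3 lay below all 16 controls and the fourth lay within the range of control run 1. Set against the control run mean, the difference was -0.42 ± 0.10 (SE, 4 mice against 16), a level 1.34-fold lower (limma, adjusted p = 0.0159). It was the one gene of the 8 that passed in exposed run 1, where the test called 4.8% of all probes in either direction and 3.19% as lower. A count of 1 in 8 from so small a list is not set apart from that background.

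In the other exposed runs Abcg1 lay closer to the controls. Exposed run 2 read -0.63, -0.46, 0.08, -0.42 and -0.13, and exposed run 3 read -0.58, -0.85, -0.17, -0.11 and -0.43. Both spanned most of the control range and each also had mice below it, 1 in run 2 and 2 in run 3. Set against the control run mean, the difference was 0.00 ± 0.10 in run 2 and -0.11 ± 0.10 in run 3 (limma, adjusted p = 0.996 and 0.664). Exposed run 1 lay below exposed run 2 by -0.42 ± 0.13 (SE; limma, adjusted p = 0.0451, with 5.94% of all probes called), and its difference of -0.31 ± 0.12 from exposed run 3 did not pass (limma, adjusted p = 0.180, with 1.98% of all probes called). Pooled over all exposed mice the difference was -0.15 ± 0.08 (limma, adjusted p = 0.459).

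The size of the Abcg1 difference in exposed run 1 depended on the control run it was set against. Among the controls themselves the run means of Abcg1 were -0.45, -0.14 and -0.39, with an F test p of 0.0353 (limma, adjusted p = 0.691, with 0.089% of all probes called among control runs). Against control run 2, the highest of the 3, the difference was -0.60 ± 0.13 (limma, adjusted p = 0.00742, with 3.83% of all probes called), while against control run 1 it was -0.30 ± 0.12 (limma, adjusted p = 0.305). Without mouse 176, 177 or 180 the difference stayed at -0.42, -0.40 and -0.38, while the adjusted p rose above the threshold (limma, adjusted p = 0.0551, 0.0742 and 0.0697). With the Cy5 signal alone the difference was -0.27 ± 0.16 (limma, adjusted p = 0.384).

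**Figure D2:**
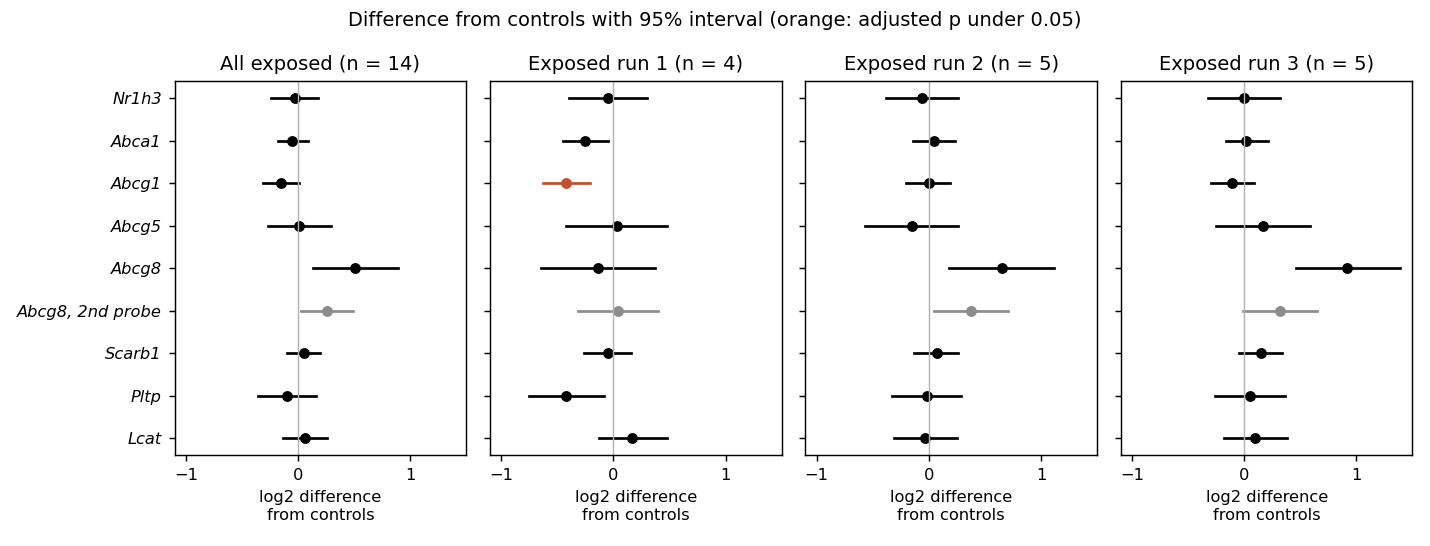
Log2 difference from controls (horizontal axis) for each gene and for the second Abcg8 probe, with the 95% interval as a line. The panels show all 14 exposed mice against the control group, then exposed runs 1, 2 and 3 each against the mean of control runs; orange marks an adjusted p under 0.05, which was reached by Abcg1 in exposed run 1 (-0.42), and the largest difference is that of Abcg8 in exposed run 3 (0.92).

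Abcg5 and Abcg8, the partners in the biliary sterol pump whose shared upstream stretch is printed above, stood at different distances from the controls, and whether the 2 genes differ in this was not tested. Abcg5 ranged from 4.70 to 6.27 with a median of 5.46 in 15 controls, and from 4.74 to 6.08 with a median of 5.54 in the 14 exposed mice. No exposed mouse lay outside the control range. The difference was 0.01 ± 0.14 (SE), with a 95% interval from -0.27 to 0.29 (limma, adjusted p = 0.982). The value of control mouse 596 was missing because the scanner software had marked its spot as an outlier.

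Among the 8 genes Abcg8 had the largest difference over all exposed mice and in exposed runs 2 and 3, though not in run 1, nor in any of these with ratios scaled to a common spread, and none of these differences passed the threshold. By its first probe, control run 1 ranged from 1.01 to 2.87 with a median of 2.61, control run 2 read 2.40, 2.21, 2.91, 1.87 and 2.30, and control run 3 read 1.77, 1.13, 2.06, 2.29 and 2.70. Exposed run 1 read 1.73, 2.58, 1.26 and 2.94, exposed run 2 read 2.73, 2.74, 3.20, 2.94 and 2.97, and exposed run 3 read 3.36, 3.43, 3.01, 3.06 and 2.83. Above all 16 controls lay 8 of the 14 exposed mice, 1 of 4 in run 1, 3 of 5 in run 2 and 4 of 5 in run 3, and none lay below all controls. Exposed run 1 spread across the control range.

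The difference in Abcg8 between all exposed and control mice was 0.51 ± 0.19 (SE), with a 95% interval from 0.13 to 0.89 (limma, adjusted p = 0.253). On 6 of the 7 slides that held both groups the exposed mice were higher, with slide differences from -0.17 to 0.82. Set against the control run mean, the difference was -0.14 ± 0.25 in exposed run 1, 0.65 ± 0.23 in run 2 and 0.92 ± 0.23 in run 3 (limma, adjusted p = 0.822, 0.298 and 0.0786). The tests of exposed runs 2 and 3 called 0.0169% and 0.131% of all probes and none of the 8 genes, with 1 gene, Abcg8, at an unadjusted p under 0.05 in each, beside 10.3% and 13.1% of all probes. With the Cy5 signal alone, which leaves out the faint reference signal, the difference was 0.40 ± 0.14 over all exposed mice and 0.71 ± 0.19 in run 3 (SE; limma, adjusted p = 0.372 and 0.317). The value depended on the run and on the scaling. It was 0.28 without exposed run 3 (limma, adjusted p = 0.784) and 0.12 with ratios scaled to a common spread (limma, adjusted p = 0.879). With exposed run 1 left out, the remaining 10 exposed mice differed from the controls by 0.78 (limma, adjusted p = 0.0418). That setting called 37 of 23607 probes, beside 4 with all exposed mice. In run 3 the call was also reached without control mouse 573, or with array weights, which called 554 probes in place of 31.

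The second Abcg8 probe gave smaller differences, also positive over all exposed mice and in runs 2 and 3. Its controls ranged from 0.40 to 1.33 with a median of 0.89 and its exposed mice from 0.28 to 1.51 with a median of 1.23. The difference was 0.26 ± 0.11 (SE) over all exposed mice and 0.32 ± 0.16 in exposed run 3 (limma, adjusted p = 0.339 and 0.393), and again 6 of 7 slides were higher in exposed mice. Of the 14 exposed mice 6 lay above all controls, 4 of them in run 3, while mouse 214 of that run read 0.28 and lay below them. Over 30 animals with run means subtracted, the 2 probes correlated with r = 0.49 (Spearman rho 0.51, permutation p = 0.00646 and 0.00483). Without the 2 animals farthest from the median of the first probe, r was 0.53. The 2 probes target the same transcript and were read from the same arrays.

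**Figure D3:**
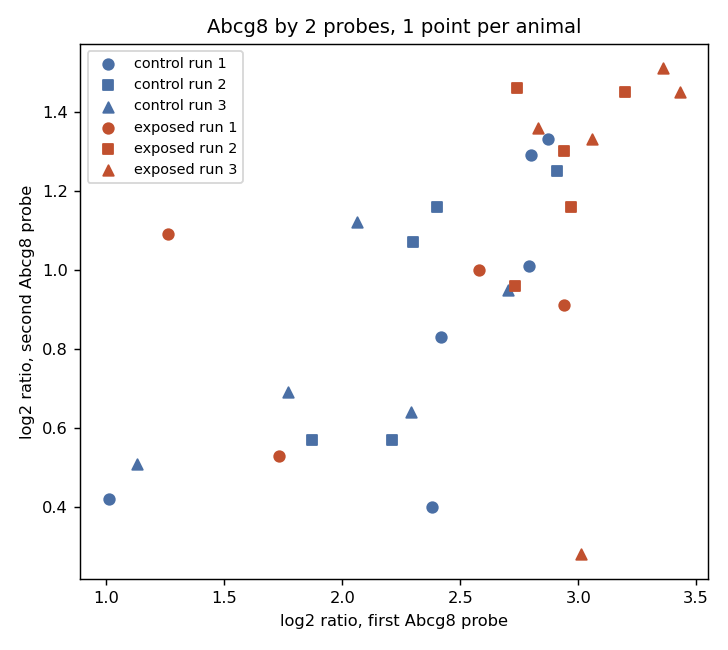
Log2 ratio of liver over reference RNA by the first Abcg8 probe (horizontal axis) and the second (vertical axis), with 1 point per mouse, colour for group and shape for run. Exposed runs 2 and 3 lie to the right, between 2.73 and 3.43 on the first probe, and exposed mouse 214 is low on the second probe alone (0.28); the reference was well above background on 4 and 10 of 30 arrays, so positions compare mice and give no level.

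Scarb1, the HDL receptor, ranged from 0.95 to 1.87 in controls with a median of 1.48 and from 1.08 to 1.87 in exposed mice with a median of 1.54. By run it read 1.25, 1.08, 1.58 and 1.72 in exposed run 1, 1.58, 1.35, 1.53, 1.66 and 1.56 in run 2, and 1.62, 1.87, 1.49, 1.52 and 1.46 in run 3. The groups overlapped almost completely, and the difference was 0.05 ± 0.07 (SE), with a 95% interval from -0.10 to 0.20 (limma, adjusted p = 0.848). Control run means stood at 1.63, 1.48 and 1.29, with an F test p of 0.0189 that did not pass after adjustment (limma, adjusted p = 0.614).

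Pltp, the phospholipid transfer protein, varied more among the controls than between the groups. Control run 1 ranged from 0.10 to 1.07 with a median of 0.39, control run 2 read 0.87, 0.38, 1.16, 0.57 and 0.16, and control run 3 read 0.96, 0.54, 1.57, 1.44 and 0.84. Exposed run 1 read 0.47, 0.25, 0.18 and 0.41, run 2 read 0.19, 0.80, 1.15, 0.44 and 0.97, and run 3 read 1.07, 0.64, 0.66, 0.80 and 0.86. Every exposed mouse lay within the control range. The F test among control runs gave p = 0.00751 for Pltp (limma, adjusted p = 0.516), the smallest of the 8 genes. Exposed run 1 stood at -0.42 ± 0.16 against the mean of control runs (limma, adjusted p = 0.148). Against control run 3 alone the difference was -0.76 ± 0.20 (limma, adjusted p = 0.0262, with 3.79% of all probes called), and against control run 1 alone it was -0.15 ± 0.19 (limma, adjusted p = 0.814).

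Lcat, the enzyme that esterifies cholesterol on HDL, ranged from 3.65 to 4.61 in controls with a median of 4.48 and from 4.01 to 4.78 in exposed mice with a median of 4.30. Exposed run 1 read 4.01, 4.64, 4.55 and 4.78, run 2 read 4.27, 4.19, 4.01, 4.32 and 4.57, and run 3 read 4.57, 4.75, 4.22, 4.28 and 4.12. Of the 14 exposed mice 3 lay above all controls, 2 of them in run 1, and none lay below. The difference was 0.06 ± 0.10 (SE), with a 95% interval from -0.13 to 0.26 (limma, adjusted p = 0.842).

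Variation among the exposed runs was tested as a whole with limma's F test, which called 4.13% of all probes and none of the 8 genes (3 at an unadjusted p under 0.05, beside 19.5% of all probes). The smallest values were those of Abcg8 (adjusted p = 0.0702), Abcg1 (adjusted p = 0.0982) and Abca1 (adjusted p = 0.222), all from limma. Their run means, in the order of exposed runs 1, 2 and 3, were 2.13, 2.92 and 3.14 for Abcg8, -0.77, -0.31 and -0.43 for Abcg1, and 2.66, 2.95 and 2.93 for Abca1. In all 3 genes run 1 had the lowest mean. Among the control runs none of the 8 genes passed (3 at an unadjusted p under 0.05, beside 7.03% of all probes). A test of whether the difference between exposed and control mice varied between runs of the same rank called 0 genes and 0% of all probes (limma; 1852 probes, 7.85%, at an unadjusted p under 0.05), and it rests on an assumption that runs of the same rank belong together. At an unadjusted p under 0.05 stood Abcg8 (p = 0.00665, adjusted p = 0.564) and Scarb1 (p = 0.0112, adjusted p = 0.575) in that limma test.

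The rest of the LXR pathway showed few calls. Over all exposed mice no gene passed in 6 lists, of LXR partners, other LXR targets, HDL genes, sterol routing, SREBP2 targets and ABC transporters. The limma test called 0.0169% of all probes there. At an unadjusted p under 0.05 stood 16 of the 72 genes, beside 12.2% of all probes. Among them were 9 of 13 SREBP2 targets, 1 of 12 LXR partners and 2 of 16 other LXR targets. In exposed run 1, where 1.6% of all probes passed as higher and 3.19% as lower, none of 12 LXR partners passed (limma; 0 at an unadjusted p under 0.05), with a median difference of -0.10 beside -0.01 over all probes. The receptor's second form Nr1h2 stood at -0.12 ± 0.07 (SE; limma, adjusted p = 0.366). Among 16 other LXR target genes 1 fell and none rose, with a median of -0.16. The gene that fell was Scd1, the desaturase that makes monounsaturated fatty acids, at -1.28 ± 0.21 (SE; limma, adjusted p = 0.00054). Srebf1, which encodes the lipogenic factor SREBP-1, stood at -0.48 ± 0.21, and Arl4c at -0.36 ± 0.13 (limma, adjusted p = 0.214 and 0.115). Nr1h3 also belongs to that list.

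Transporters and lipoprotein genes around the 8 gave mixed counts in exposed run 1, to be read beside the same shares of 1.6% higher and 3.19% lower. Of 11 other ABC transporters of the A and G subfamilies 2 fell, Abca3 at -0.60 ± 0.10 and Abca7 at -0.43 ± 0.11 (SE; limma, adjusted p = 0.0011 and 0.0233), and the median was 0.00. Abca3 is best known as the phospholipid transporter of lung surfactant, and Abca7 is a close relative of Abca1. Of 13 genes of HDL and reverse transport 1 rose and 1 fell, the riser being Apoa4, an apolipoprotein of HDL and chylomicrons, at 1.05 ± 0.23 (SE; limma, adjusted p = 0.00705), and the other again Abca7. None of 12 genes of sterol routing passed, with a median of 0.09, and Stard4, a carrier of cholesterol in the cytosol, stood at 0.38 ± 0.13 (SE; limma, adjusted p = 0.0799).

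SREBP2 is the factor that raises cholesterol synthesis. In exposed run 1, 8 of 13 measured SREBP2 targets rose and none fell, with a median of 0.82, where 1.6% of all probes passed as higher. Lss, the lanosterol synthase, was at 1.37 ± 0.19, Cyp51 at 1.07 ± 0.15 and Mvk at 1.03 ± 0.14 (SE; limma, adjusted p = 0.000122 for each). The median was -0.02 in exposed run 2 and 0.39 in exposed run 3, with 0 of 13 called in both (limma; 0 and 10 at an unadjusted p under 0.05, beside 10.3% and 13.1% of all probes). For the lists of LXR partners and LXR targets no gene passed in these runs either (limma; from 1 to 3 genes of a list at an unadjusted p under 0.05), with medians between 0.00 and 0.06. All 6 lists were chosen with results of these data already known.

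**Figure D4:**
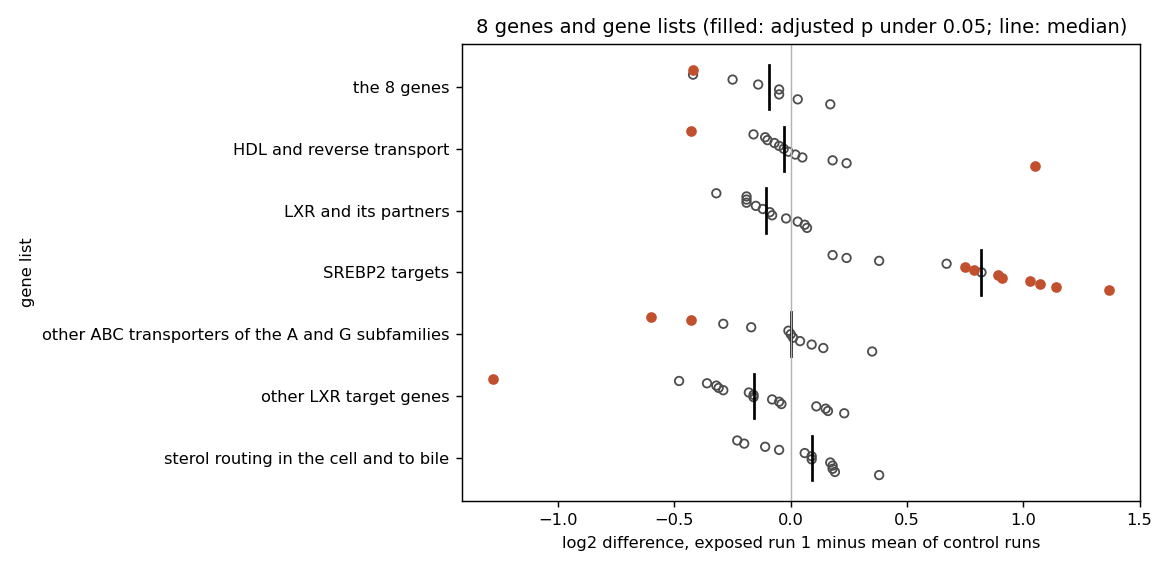
Log2 difference of exposed run 1 from the mean of the control runs (horizontal axis) for the 8 genes and the genes of 6 lists (vertical axis). Each circle is 1 gene, filled where the adjusted p was under 0.05, and a vertical line marks the median of a list, from -0.16 for other LXR targets to 0.82 for SREBP2 targets.

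Abcg1 is also expressed by macrophages. In exposed run 1, 1.6% of all probes passed as higher and 3.19% as lower, and 18.7% stood at an unadjusted p under 0.05. Of 8 measured macrophage and Kupffer cell markers out of 9 listed, all 8 had a negative difference there, with a median of -0.29. So had all 6 endothelial, all 5 bile duct and all 5 lymphocyte markers, so this was not particular to macrophages. Of the other lists, 3 of 5 hepatocyte, 3 of 6 stellate cell and 1 of 4 neutrophil markers had a negative difference. Of the 8 macrophage and Kupffer cell markers, 1 passed, Lyz2 (lysozyme) at -0.72 ± 0.16 (SE, limma, adjusted p = 0.00835), and 3 stood at an unadjusted p under 0.05. The mean log2 ratio of the list ranged from 2.49 to 3.06 over the mice of exposed run 1, from 2.55 to 3.76 over all controls, from 2.73 to 3.61 in exposed run 2 and from 2.95 to 3.46 in exposed run 3. Adgre1 (F4/80) stood at -0.49 ± 0.15, Timd4 at -0.61 ± 0.21 and the Kupffer cell marker Clec4f at -0.23 ± 0.19 (SE; limma, adjusted p = 0.0617, 0.0829 and 0.567). Endothelial markers had a median of -0.26, with none of 6 called, and bile duct markers a median of -0.26, with 1 of 5 called (Spp1, -0.59 ± 0.17 SE; limma, adjusted p = 0.0462). Of 4 measured neutrophil markers 1 rose, Lcn2 (lipocalin 2, which hepatocytes also make in the acute phase) at 3.02 ± 0.38 (SE; limma, adjusted p = 0.0000435), and the median was 0.46. Of 5 hepatocyte markers 1 fell, Ttr (transthyretin) at -1.14 ± 0.25, and of 6 stellate cell markers 1 fell, Col1a1 (a collagen chain) at -0.61 ± 0.18 (SE; limma, adjusted p = 0.00802 and 0.0433), with medians of -0.10 and -0.14. None of 5 lymphocyte markers passed (limma; 2 at an unadjusted p under 0.05), with a median of -0.16. At that unadjusted p also stood 2 endothelial, 3 bile duct, 3 neutrophil, 1 hepatocyte and 1 stellate cell marker. The part of any of these cell types in the Abcg1 difference was not tested.

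Between animals, some of the 8 genes varied together once the mean of each run had been subtracted. Of 28 pairs, 7 had an adjusted permutation p under 0.05, and 9 by Spearman's rho. Abcg5 and Nr1h3 correlated with r = 0.88 (rho 0.91, n = 29), Abcg5 and Lcat with r = 0.84 (rho 0.86, n = 29), and Nr1h3 and Lcat with r = 0.82 (rho 0.88, n = 30). For these 3 pairs the permutation p was 0.00001 by both measures, the smallest that 100000 resamples can give, and 0.0000933 after adjustment. Without the 2 animals farthest from the median of the gene named first, r was 0.87, 0.81 and 0.83. Animals extreme only for the other gene stayed in. Within controls r was 0.89, 0.85 and 0.79, beside 0.86, 0.82 and 0.92 within exposed mice. With slide means subtracted as well it was 0.83, 0.90 and 0.91. The permutations shuffled the animals without regard to slide, so their p-values leave slide out of account. Slide accounted for 64.3%, 67.7% and 44.1% of the variance of Abcg5, Nr1h3 and Lcat. These shares are not adjusted for the number of slides, so part of each would arise without any slide effect. Slides also differ in their mix of groups and runs. How many pairs of other genes on the array would reach the same threshold was not tested.

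These 3 correlations were not seen in the Cy5 channel alone. There r was -0.11 for Abcg5 and Nr1h3, 0.07 for Abcg5 and Lcat, and -0.08 for Nr1h3 and Lcat, while in the Cy3 channel alone, which holds the reference RNA, it was 0.50, 0.13 and 0.41. The values of a pair come from the same arrays and share the loess curve and the reference signal of each array. A correlation that is present in the ratio and absent from the liver channel is given here as a value of the ratio.

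The remaining 4 pairs included Abcg5 and Abcg8, the partners of the biliary pump, with r = 0.47 (rho 0.51, n = 29; permutation p = 0.00954 and 0.00473, adjusted p = 0.0382 and 0.0221). Without the 2 animals farthest from the median of Abcg5 r was 0.49, with slide means subtracted 0.63, and with Cy5 alone 0.34. Abcg8 and Lcat correlated with r = 0.50 (rho 0.56, n = 30; permutation p = 0.00438 and 0.00177, adjusted p = 0.0245 and 0.00991), and this pair kept r = 0.65 with Cy5 alone. Abca1 correlated with Abcg5 (r = 0.57, permutation p = 0.00114, adjusted p = 0.00798) and with Lcat (r = 0.47, permutation p = 0.00767, adjusted p = 0.0358), but with Cy5 alone r was -0.06 and 0.03. No pair with Abcg1 or Pltp was among the 7, and for Abca1 and Abcg1, the pumps named together as LXR targets, r was -0.01 (permutation p = 0.977).

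**Figure D5:**
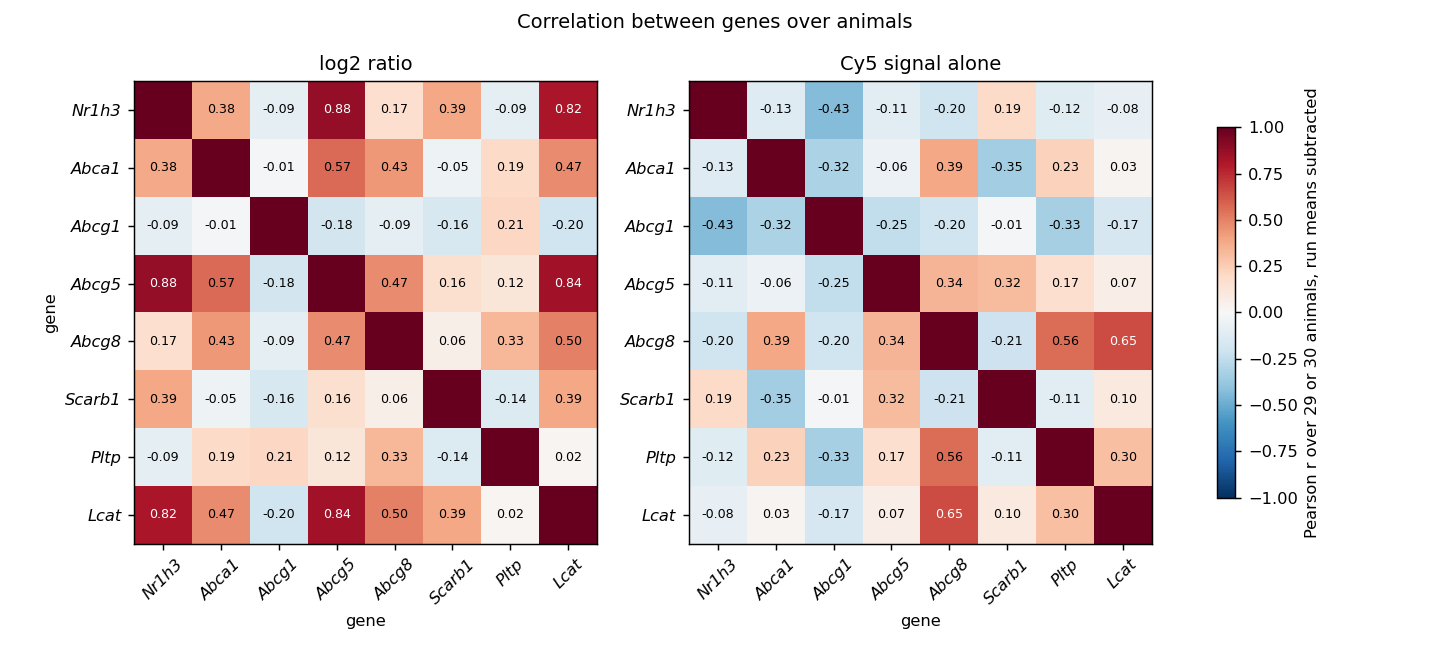
Pearson r between the 8 genes (both axes) over animals with run means subtracted, for the log2 ratio on the left and the Cy5 signal alone on the right; red is positive and blue negative. Abcg5, Nr1h3 and Lcat form a block of r from 0.82 to 0.88 on the left, and the same cells on the right lie between -0.11 and 0.07.

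Across all named genes, those with the most similar pattern over animals were listed by the highest r of log2 ratios with run means subtracted. For Abcg5 they were Uox, Acsm1 and Ugt2b37 (r = 0.96, 0.95 and 0.95, n = 29), for Nr1h3 Reep6, Ces1e and Ces1g (r = 0.97, 0.96 and 0.96, n = 30), and for Lcat Abcc2, Dmgdh and Timd2 (r = 0.95, 0.95 and 0.94, n = 30). These 3 had 59, 63 and 39 genes with r over 0.9, and the other 5 genes had 0. For Abcg1 the most similar were Marcks, Rgl1 and Ube2e3 (r = 0.80, 0.78 and 0.76), for Abca1 Inhbc, Klb and Hsf4 (r = 0.74, 0.71 and 0.71), and for Scarb1 Saa3, Lbp and Ppargc1a (r = 0.74, 0.69 and 0.67). Pltp was most similar to Ly6a, Dpf2 and Pnpla3 (r = 0.79, 0.70 and 0.69). Abcg8 was most similar to Nostrin, Iqgap2 and Cd163 by its first probe (r = 0.83, 0.82 and 0.82) and to Adhfe1, Lgals9 and Mertk by its second (r = 0.79, 0.78 and 0.76), so the 2 probes shared none of their 3 nearest genes. With slide means subtracted as well, r lay between 0.91 and 0.95 for the genes listed for Abcg5, Nr1h3 and Lcat. For the others it lay between 0.50 (Klb with Abca1, Pnpla3 with Pltp) and 0.86 (Lgals9 and Mertk with Abcg8). These similarities were not examined in the Cy5 channel alone, where Abcg5, Nr1h3 and Lcat did not correlate with each other.

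The reference channel served as a background for these differences. On Cy3 alone none of the 8 genes passed in any of the 7 comparisons (limma), while 10 of 23607 probes did in exposed run 1 and 8 among the exposed runs. From 535 to 1678 of the 23607 probes stood at an unadjusted p under 0.05 in a comparison. Of the Cy3 values of these 8 genes over the 7 comparisons together, 5 stood there, and whether that exceeds the share of all probes was not tested. Among them were Abcg5 over all exposed mice (0.24 ± 0.10 SE, p = 0.0197) and Abca1 in exposed run 1 (-0.32 ± 0.12 SE, p = 0.0118; limma, adjusted p = 0.716 and 0.677). In the liver channel alone the same 2 values were 0.24 ± 0.09 and -0.58 ± 0.17 (SE; limma, adjusted p = 0.373 and 0.0605). For Abcg5 the value was thus equal in both channels, although Cy3 held the same RNA on every array.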

How the data were processed

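Two-colour Agilent arrays measured liver RNA (Cy5) of 30 mice against a common reference RNA (Cy3). The deposited scanner files give a foreground and a background intensity for each spot and dye, extracted by the authors with Feature Extraction 10.7.3.1 (25 arrays) or 10.1.1.1 (5 arrays), per the file headers. A deposited table of processed values holds log2 ratios, as was found by setting each column against the scanner values of its array: 30 of 30 columns matched their own array best. It was used as an alternative.

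Median signals were corrected by normexp (offset 50) and normalised by loess on each array, control spots having weight 0 (R version 4.3.3 with limma 3.58.1). Spots marked as outliers were set to missing and spots of a probe averaged. Probes were named through a RefSeq table of GRCm38.p6 by transcript accession, which named 24375 of 41174 probes. Tests covered the 23607 probes whose Cy5 signal was well above background on 14 or more of 30 arrays. A gene with several probes is represented by the one with the highest mean Cy5 signal.

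Group means and, separately, the means of 6 runs (a gap over 10 in animal numbers starts a run) were fitted with slide as a random block (correlation 0.159 and 0.147). Tests are two-sided, and p-values were adjusted by Benjamini-Hochberg over the tested probes, with 0.05 as the threshold. On simulated log ratios of 23607 probes, the test of exposed run 1 recovered 73 of 100 probes changed by 0.5. It recovered 97 of 100 changed by 1, and the test of all exposed mice recovered 93 and 99. Recovery with exposed runs as different as those of these mice, where 976 probes were called among the runs, was not tested. Correlations used two-sided permutation tests with 100000 resamples, drawn without regard to slide and adjusted over 28 pairs.

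The 8 genes, the lists and the tests were chosen with earlier results of these data known. All 8 genes are named, with up to 4 genes per list by smallest p (fewer where the text gives fewer) and the 3 most similar genes of each, and cell type markers from a fixed list. The alternatives were other background corrections and normalisations, filters, treatments of slide, array position and array weights, the software version, each run and each animal left out, single control runs, the second Abcg8 probe and, added after seeing the data, the Cy5 signal alone. Labels do not say whether animals were handled separately beyond having a number each, so p-values measure the spread between these animals. The figures were drawn in matplotlib.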

Additional observations from a re-analysis of the deposited data

Results flagged for a closer look

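Within the runs of 4 to 6 animals, 54 sets of values were examined for a lone value by the Dixon ratio, and 3 stood out, where chance alone gives about 1 in 20. In control run 1, mouse 548 read 1.01 on the first Abcg8 probe, while the other 5 mice lay between 2.38 and 2.87. In exposed run 1, mouse 176 read 3.76 for Nr1h3, while the other 3 lay between 4.13 and 4.16. In exposed run 3, mouse 214 read 0.28 on the second Abcg8 probe, while the other 4 lay between 1.33 and 1.51. On the first Abcg8 probe mouse 214 read 3.01, within its run.

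The level of Abcg1 differed between exposed runs 1 and 2 by -0.42 ± 0.13 (SE; limma, adjusted p = 0.0451), with run 1 lower. The F test over the 3 exposed runs did not pass for Abcg1 (limma, adjusted p = 0.0982).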

How the results depend on the processing

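Across 55 alternatives, 1364 of 1540 recomputed differences of single genes kept their direction and their side of the threshold, and 162 changed sign, none of them past the threshold. The sign changes fell in 24 of 32 differences, each at most 0.17 in size. Of 1059 recomputed F tests, which have no direction, 1055 stayed on their side of the threshold. No paired analysis was possible because the replicate numbers are animal numbers and the groups share none, so slide, which on 7 of 9 slides joins both groups, was fitted as a block instead. The number of genes called stayed at 0 under all alternatives for exposed run 2, among control runs and in the test of run by group. Over all exposed mice it was 1 in place of 0 without exposed run 1 (Abcg8, with 37 probes called over the whole array). In exposed run 3 it was 1 in place of 0 with array weights (Abcg8, 0.91, limma, adjusted p = 0.0168, with 554 probes called). In exposed run 1 it was 0 in place of 1 with median centring, scale normalisation, slide as a fixed block, array position as a term, the Cy5 signal alone, and control run 1 alone, where Abcg1 stood at -0.36, -0.54, -0.37, -0.44, -0.27 and -0.30 (limma, adjusted p = 0.58, 0.0506, 0.0654, 0.0886, 0.384 and 0.305). Against control run 3 alone the count stayed at 1, but Pltp passed in place of Abcg1 (-0.36, limma, adjusted p = 0.102). With 1 animal left out, the count ranged from 0 to 1 in exposed run 1, from 0 to 1 in exposed run 3 (1 without control mouse 573, adjusted p = 0.0481) and from 0 to 1 among the exposed runs. In the last, Abcg8 passed without control mouse 548 (limma, adjusted p = 0.0307) or exposed mouse 180 (0.0335), and Abcg1 without exposed mouse 193 (0.0487) or 213 (0.046). Abcg8 over all exposed mice ranged from 0.43 to 0.61 with 1 animal left out (limma, adjusted p from 0.112 to 0.379). Scale normalisation also moved differences that kept their sign, to -0.51 for Abca1, -0.63 for Nr1h3, -0.33 for Pltp and 0.12 for Abcg8 over all exposed mice, to -1.21 for Abcg5, -0.74 for Nr1h3, -0.75 for Lcat and 0.11 for Abcg8 in exposed run 2, and to -1.11 for Nr1h3 and 0.36 for Abcg8 in exposed run 3, none past the threshold. The cause of these changes was not tested.

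The number of probes called over the whole array moved more than that of the 8 genes. Over all exposed mice it was 4 and ranged from 0 to 166 (array weights), in exposed run 1 it was 1132 and ranged from 58 (control run 1 alone) to 1789 (no background correction), in run 2 it was 4 and ranged from 0 to 153 and in run 3 it was 31 and ranged from 0 to 554. Among the exposed runs it was 976 and ranged from 125 to 1572, and among the control runs 21, with a range of 2 to 30.

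The values that changed sign are these log2 differences, with exposed runs set against the mean of the control runs unless a single one is named. With the processed signals of the scanner software, the values were over all exposed mice Abcg5 -0.08 and Lcat -0.11, in exposed run 1 Abcg8 0.19, Scarb1 0.04 and Nr1h3 0.05, in exposed run 2 Abca1 -0.03, in exposed run 3 Abca1 -0.03, Abcg5 -0.04 and Lcat -0.18. With scale normalisation between arrays, the values were over all exposed mice Abcg5 -0.90, Scarb1 -0.13 and Lcat -0.51, in exposed run 1 Scarb1 0.05 and Nr1h3 0.02, in exposed run 2 Abca1 -0.47 and Scarb1 -0.17, in exposed run 3 Abca1 -0.78, Abcg5 -1.42, Scarb1 -0.19, Pltp -0.23 and Lcat -0.99. From the value table, the values were over all exposed mice Abcg5 -0.04, in exposed run 1 Abcg8 0.01, Scarb1 0.02 and Nr1h3 0.05, in exposed run 2 Abca1 0.00, in exposed run 3 Abca1 -0.01. With outlier spots kept, the values were over all exposed mice Abcg5 -0.01. With slide as a fixed block, the values were over all exposed mice Abcg5 -0.01 and Nr1h3 0.01, in exposed run 1 Abcg5 -0.11, in exposed run 2 Abca1 -0.01, Nr1h3 0.07 and Lcat 0.00, in exposed run 3 Abca1 -0.04, Nr1h3 0.01 and Pltp -0.07. Without exposed run 1, the values were over all exposed mice Abca1 0.03 and Pltp 0.03. Without control run 2, the values were over all exposed mice Abcg5 -0.02. Without exposed run 3, the values were over all exposed mice Abcg5 -0.07 and Scarb1 0.00. Without control run 3, the values were over all exposed mice Scarb1 -0.04 and Pltp 0.08. With the Cy5 signal alone, the values were over all exposed mice Scarb1 -0.02 and Nr1h3 0.01, in exposed run 1 Abcg8 0.11, Scarb1 0.09 and Nr1h3 0.12, in exposed run 2 Abcg1 0.01, Abcg5 0.24 and Scarb1 -0.12, in exposed run 3 Abca1 -0.09, Abcg1 0.00 and Pltp -0.16. Without background correction, the values were in exposed run 1 Abcg8 0.01 and Nr1h3 0.04, in exposed run 3 Abca1 -0.02. With median centring in place of loess, the values were in exposed run 1 Scarb1 0.20 and Nr1h3 0.15, in exposed run 2 Scarb1 -0.01, in exposed run 3 Abca1 -0.03. With array position as a term, the values were in exposed run 1 Abcg5 -0.17, in exposed run 2 Abcg1 0.00, in exposed run 3 Nr1h3 0.17. With array weights, the values were in exposed run 1 Scarb1 0.03 and Nr1h3 0.02, in exposed run 2 Abca1 -0.02, in exposed run 3 Abca1 -0.01 and Nr1h3 0.04. Against control run 1 alone, the values were in exposed run 1 Nr1h3 0.03, in exposed run 2 Abcg1 0.12, Scarb1 -0.10, Nr1h3 0.02 and Pltp 0.24, in exposed run 3 Abcg1 0.01, Scarb1 -0.02, Nr1h3 0.08 and Lcat -0.04. Against control run 3 alone, the values were in exposed run 1 Abcg5 -0.05, Abcg8 0.06 and Scarb1 0.12, in exposed run 2 Abcg1 0.06 and Lcat 0.06, in exposed run 3 Pltp -0.29. With all probes tested, the values were in exposed run 2 Abcg1 0.00. With probes well above background on all arrays, the values were in exposed run 2 Abcg1 0.00. With slide left out, the values were in exposed run 2 Abcg1 0.01. Without the 5 arrays of the other software version, the values were in exposed run 2 Abca1 -0.04, in exposed run 3 Nr1h3 0.03. Against control run 2 alone, the values were in exposed run 2 Pltp 0.05 and Lcat 0.04. With the second probe, the values were in exposed run 1 Abcg8 0.04. With 1 animal left out, differences over all exposed mice ranged from -0.04 to 0.08 for Abcg5 and from -0.06 to 0.02 for Nr1h3. With 1 animal left out, differences in exposed run 1 ranged from -0.05 to 0.18 for Abcg5, from -0.41 to 0.06 for Abcg8, from -0.16 to 0.06 for Scarb1 and from -0.12 to 0.08 for Nr1h3. With 1 animal left out, differences in exposed run 2 ranged from -0.07 to 0.11 for Abca1, from -0.10 to 0.07 for Abcg1, from -0.28 to 0.01 for Abcg5, from -0.15 to 0.04 for Nr1h3, from -0.13 to 0.13 for Pltp and from -0.10 to 0.05 for Lcat. With 1 animal left out, differences in exposed run 3 ranged from -0.01 to 0.05 for Abca1, from -0.07 to 0.07 for Nr1h3 and from 0.00 to 0.09 for Pltp.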
